A study of Mus musculus with 11 samples.

Results

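Intragenic regions of open chromatin that were found in all 11 ATAC-seq libraries of the series were examined, 9882 in number. They were chosen from the peak lists deposited for the libraries. From each list the 72935 peaks with the highest -log10 p were kept, as many as the shortest list held, and overlapping intervals on chromosomes 1 to 19 were merged over all lists into 82662 regions. Of these, 28339 held a peak of every library. Among them 9882 overlapped the body of a protein-coding gene and lay more than 1000 bp from either end of every protein-coding gene, and they are called members here. In all, 36490 merged regions were intragenic. The other regions with a peak in every library were 10436 at gene ends and 8021 between genes.

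The libraries were made by ATAC-seq, in which the Tn5 transposase inserts adapters into accessible DNA, from EpCAM+ lung epithelial cells of mouse fetuses at E17.5. The 5 knockout libraries (KO) are labelled Prdm3/16KO, with floxed Prdm3 (Mecom) and Prdm16 deleted by ShhCre, a Cre expressed from the Shh locus in the lung epithelium. The 6 Control libraries are labelled only as Control, and the labels do not say which alleles they carry. Per the labels, the sires of the cross carried Prdm3fl/flPrdm16fl/wt with ShhCre and the dams Prdm3fl/flPrdm16fl/fl, so floxed alleles of Prdm3 are common to the offspring of that cross. The labels do not tie libraries to single animals, so p-values measure only the spread between these libraries, and the labels give no batch. The question of the series was how accessibility differs between these genotypes.

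The products of Prdm3 and Prdm16 are PRDM-family zinc finger factors that act on transcription and chromatin. Open chromatin inside genes is largely intronic and includes enhancers, insulator sites and internal promoters. Promoters rich in CpG dinucleotides are open in most tissues, whereas CpG-poor promoters and enhancers tend to be open in particular cell types.

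Members were 853 bp wide at the median, with 679 and 1063 bp as the quartiles, and lay 21773 bp from the nearest gene end at the median. They fell in 4821 genes, 23.3% of the 20661 protein-coding genes annotated on these chromosomes. Of these genes 2762 held 1 member, 443 held at least 5 and 66 held at least 10. Host genes were long, with a median length of 64878 bp against 17491 bp over all protein-coding genes. A single gene hosted 9797 of the members, and 82 lay in 2 overlapping genes. Exons and introns could not be told apart with the gene table used.

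Some members lie on the annotated start of a transcript that begins inside a longer gene or on a neighbour of another type. The RefSeq table of start windows (build GRCm38.p6, which is mm10), from 250 bases before to 50 after a start, was held for the chromosomes of 9493 members. Of these, 1128 (11.9%) overlapped a window, 1008 of a protein-coding gene and 206 of a long non-coding RNA, with 86 on both. Since no genome of this build was given, sequence is shown for such starts only. The windows below belong to 2 of the start members with the greatest fall in the KO (Vav3, Mylk), 2 with the greatest rise (Mrtfb, Stap2), 2 of the strongest (Fer and the long non-coding RNA Gm35417, inside Edem1) and the one whose summit moved farthest (Txk). They are written 5′ to 3′ on the strand of the gene, with CpG dinucleotides in capitals.
Vav3, chr3:109573757-109574056, plus strand: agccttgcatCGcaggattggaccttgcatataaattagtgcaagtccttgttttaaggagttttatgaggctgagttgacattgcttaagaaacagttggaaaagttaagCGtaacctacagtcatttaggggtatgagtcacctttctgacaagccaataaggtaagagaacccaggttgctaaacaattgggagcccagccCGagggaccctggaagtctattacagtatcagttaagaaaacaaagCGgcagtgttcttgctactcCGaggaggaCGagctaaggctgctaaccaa
Mylk, chr16:34784700-34784999, plus strand: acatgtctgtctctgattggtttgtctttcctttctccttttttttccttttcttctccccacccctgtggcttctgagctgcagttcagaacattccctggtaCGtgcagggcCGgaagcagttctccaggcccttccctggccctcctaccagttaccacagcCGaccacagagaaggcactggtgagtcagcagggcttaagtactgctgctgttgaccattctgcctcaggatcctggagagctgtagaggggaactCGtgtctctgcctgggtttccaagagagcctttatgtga
Mrtfb, chr16:13358171-13358470, plus strand: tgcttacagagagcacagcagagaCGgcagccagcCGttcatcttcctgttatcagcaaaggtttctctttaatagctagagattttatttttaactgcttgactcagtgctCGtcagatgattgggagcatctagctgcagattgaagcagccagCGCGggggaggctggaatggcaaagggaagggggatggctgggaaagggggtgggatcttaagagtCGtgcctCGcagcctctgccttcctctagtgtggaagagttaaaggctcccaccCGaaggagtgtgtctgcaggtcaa
Stap2, chr17:56005557-56005856, minus strand: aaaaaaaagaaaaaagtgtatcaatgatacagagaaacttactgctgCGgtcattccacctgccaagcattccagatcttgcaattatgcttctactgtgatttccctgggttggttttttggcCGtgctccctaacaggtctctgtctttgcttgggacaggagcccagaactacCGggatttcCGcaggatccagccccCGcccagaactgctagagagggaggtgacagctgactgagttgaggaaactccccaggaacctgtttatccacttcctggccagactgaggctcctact
Fer, chr17:63863731-63864030, plus strand: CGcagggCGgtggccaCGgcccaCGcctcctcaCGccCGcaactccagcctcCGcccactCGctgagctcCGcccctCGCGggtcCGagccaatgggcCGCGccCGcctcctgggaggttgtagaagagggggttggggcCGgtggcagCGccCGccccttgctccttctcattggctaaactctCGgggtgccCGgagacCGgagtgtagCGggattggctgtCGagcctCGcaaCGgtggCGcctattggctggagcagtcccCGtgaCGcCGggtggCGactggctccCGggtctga
Gm35417, chr6:108828227-108828526, minus strand: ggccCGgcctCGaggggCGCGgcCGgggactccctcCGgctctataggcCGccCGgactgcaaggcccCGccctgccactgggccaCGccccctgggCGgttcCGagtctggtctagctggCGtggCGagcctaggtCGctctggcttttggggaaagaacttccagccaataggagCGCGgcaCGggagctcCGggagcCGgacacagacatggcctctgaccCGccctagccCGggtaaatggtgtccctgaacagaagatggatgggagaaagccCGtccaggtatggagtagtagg
Txk, chr5:72736553-72736852, minus strand: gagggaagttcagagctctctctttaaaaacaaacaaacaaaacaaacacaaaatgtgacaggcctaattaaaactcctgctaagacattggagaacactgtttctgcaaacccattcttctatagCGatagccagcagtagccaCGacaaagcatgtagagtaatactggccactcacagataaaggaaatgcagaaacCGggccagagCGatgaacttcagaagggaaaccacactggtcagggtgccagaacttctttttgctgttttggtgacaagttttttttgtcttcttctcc

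The windows differ in CpG content. Those of Fer and Gm35417 hold 31 and 23 CpG dinucleotides in 300 bases. Those of Vav3, Mylk, Mrtfb, Stap2 and Txk hold 6, 4, 8, 5 and 4. The median was 19 over the 1128 windows on members and 7 over all 31396 windows of the table.

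The strength of a region in a library was expressed as a rank score. The strongest of the 72935 peaks of a library has a score of 1, the others have evenly lower scores towards 0, and a region takes the score of its strongest peak. Depth is unknown, and ranks within a library were used because they do not need it. The deposited lists held 72935 to 85704 peaks in the KO and 79525 to 112297 in the Control libraries. Members had a mean score of 0.698, 0.702, 0.695, 0.706 and 0.705 in the KO libraries, against 0.701 to 0.720 in the Control libraries. The group means were 0.702 ± 0.00462 in KO (SD, n = 5) and 0.711 ± 0.00629 in Control libraries (SD, n = 6), a difference of -0.00943, and the groups overlapped. Across members, the Spearman correlation between libraries was 0.898 to 0.924 within KO, 0.896 to 0.935 within Control and 0.639 to 0.708 between the genotypes, a description of libraries that share their members.

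The rule required a peak in every library, so the level of a member is a description and not a result. The median of the members' mean score was 0.716, with quartiles of 0.582 and 0.841, against 0.835 for gene ends and 0.705 between genes. Within a group the SD of a member was 0.0487 in KO and 0.0499 in Control libraries at the median. The 10 strongest members had mean scores that round to 0.999 or 1.00. A pair of them lay side by side in Myo3a, a class III myosin of sensory hair cells, at chr2:22588626-22590241 and chr2:22587353-22588356. The others lay in Uggt2, a glycoprotein folding sensor of the endoplasmic reticulum, Edil3, an integrin-binding matrix protein, Pcmtd1, Edem1, a factor of endoplasmic reticulum degradation, Fer, a tyrosine kinase, Clybl, a mitochondrial citrate lyase homologue, Kifap3, a kinesin-2 subunit, and Zfp446, a zinc finger gene. Those of Edem1, Fer, Clybl and Kifap3 lie on an annotated start. None of the 10 was called between genotypes, with differences between -0.00113 and 0.000455. Mean scores this near 1 over all 11 libraries leave hardly any room to differ, so this follows from the choice.

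The 5 most even members of middle strength, with a mean score from 0.4 to 0.6, lay in Alpk1, a kinase that senses bacterial sugars, Zfp583, Pdlim5, a PDZ and LIM domain protein, Nr2e3, a nuclear receptor of photoreceptors, and Gnal, a G protein subunit of olfaction. The Alpk1 member, chr3:127763125-127763452, scored 0.406, 0.357, 0.439, 0.446 and 0.4002 in the KO libraries, against 0.409 at the lowest, 0.430 at the median and 0.460 at the highest in the Control libraries. The genotypes overlapped at this member, and none of the 5 was called, with differences from -0.0212 to 0.0353. They were chosen for the smallest range over all 11 libraries, so small differences follow from the choice and are not a result.

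Genotype, which the rule did not use, was compared for every region with a peak in at least 3 libraries, 65877 in all, by limma with Benjamini-Hochberg adjustment over all of them. A member had to keep a peak in every library, which limits how far it could differ. Of the members 2710 (27.4%) were lower and 1885 (19.1%) higher in the KO at an adjusted p below 0.05, together 46.5%. Over all regions tested the shares were 24.1% lower and 20.7% higher, together 44.8%, so the members' share was close to that background. Over all 28339 regions with a peak in every library they were 20.7% lower and 15.6% higher, together 36.4%. At gene ends with a peak in every library 932 regions were lower and 948 higher (18% called), and between genes 2233 and 1598 (47.8%). Members thus resembled intergenic regions and not gene ends in these shares, and no test of that contrast was made.

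Differences were mostly small on the scale of 0 to 1. The median size was 0.0701 over all members and 0.154 over the called ones, and the median difference was -0.00983, against -0.0117 over all regions tested. A called difference of at least 0.3 was seen at 259 lower and 336 higher members. KO and Control libraries did not overlap at 1640 lower and 1238 higher members (29.1%), against 13.6% and 12.6% of all regions tested (26.2% together) and 12.3% and 9.58% of all regions with a peak in every library (21.8% together). The lower share of called members was 59.0%, but 74.4% with the lists used as deposited and 49.0% with peaks ranked by fold enrichment. Which direction led therefore depended on the ranking.

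**Figure D1:**
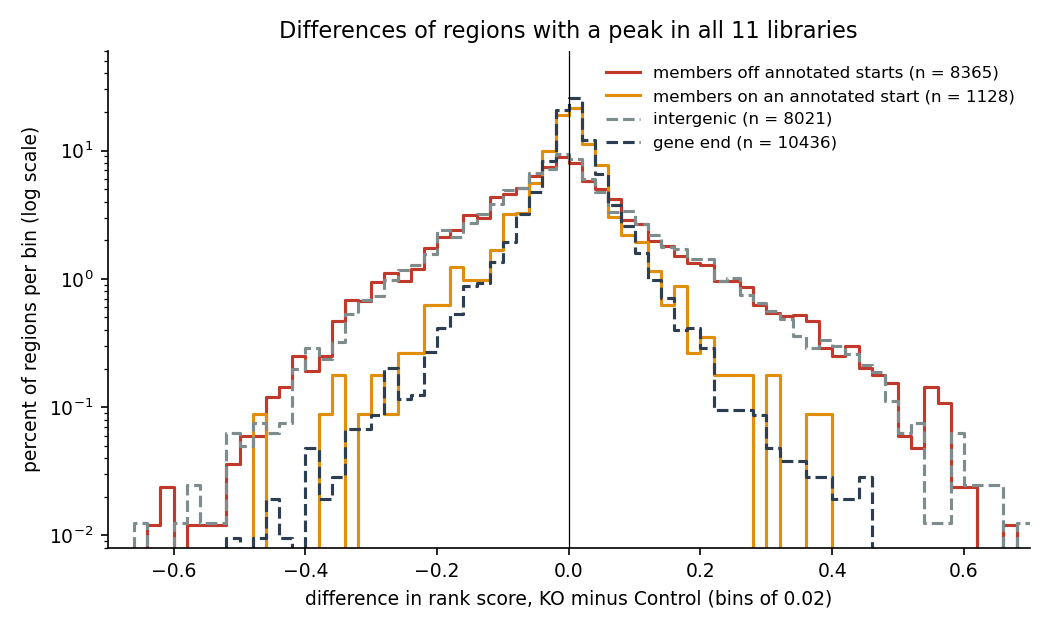
Difference in rank score (KO minus Control, x axis, bins of 0.02) of regions with a peak in all 11 libraries, as percent of the regions of each class (log y axis). The SD of the differences is 0.153 for members off annotated starts (n = 8365) and 0.149 for intergenic regions (n = 8021), against 0.0754 for members on a start (n = 1128) and 0.0660 for gene-end regions (n = 10436).

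Members on an annotated start and those off starts are set side by side here as a description, and no test of the contrast was made. Of the 1128 on a start 145 were lower and 100 higher in the KO (21.7% called), and of the 8365 off starts 2451 were lower and 1709 higher (49.7%). The median size of a difference was 0.0288 on starts and 0.0786 off starts. Members on starts were also stronger, at a median mean score of 0.806 against 0.705. Among members with a mean score from 0.6 to 0.8 the shares were 23.1% on starts (n = 347) and 55.5% off starts (n = 3360), and from 0.9 to 0.95 they were 22.1% (n = 154) and 49.2% (n = 618). The share on starts was the smaller one under each of 7 other ways of scoring or fitting, between 15.2% and 22.4% on starts and between 37.1% and 50.2% off starts.

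Among members on starts, the share called is given by the number of CpG dinucleotides in the window, again with no test. With 0 to 5 of them 48 of 137 members were lower and 16 higher (46.7% called), a share like that of members off starts. With 6 to 10 it was 37 and 21 of 157 (36.9%), with 11 to 20 it was 32 and 31 of 333 (18.9%), and with 21 or more it was 28 and 32 of 501 (12%). The median score moved along with CpG, at 0.711, 0.773, 0.815 and 0.838 in these classes, and its part in the shares was not tested. The median window held 8 CpG dinucleotides at lower members, 14 at higher members and 20 at those not called. The 34 start members that were called with a difference of at least 0.2 in size had a median of 5.

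**Figure D2:**
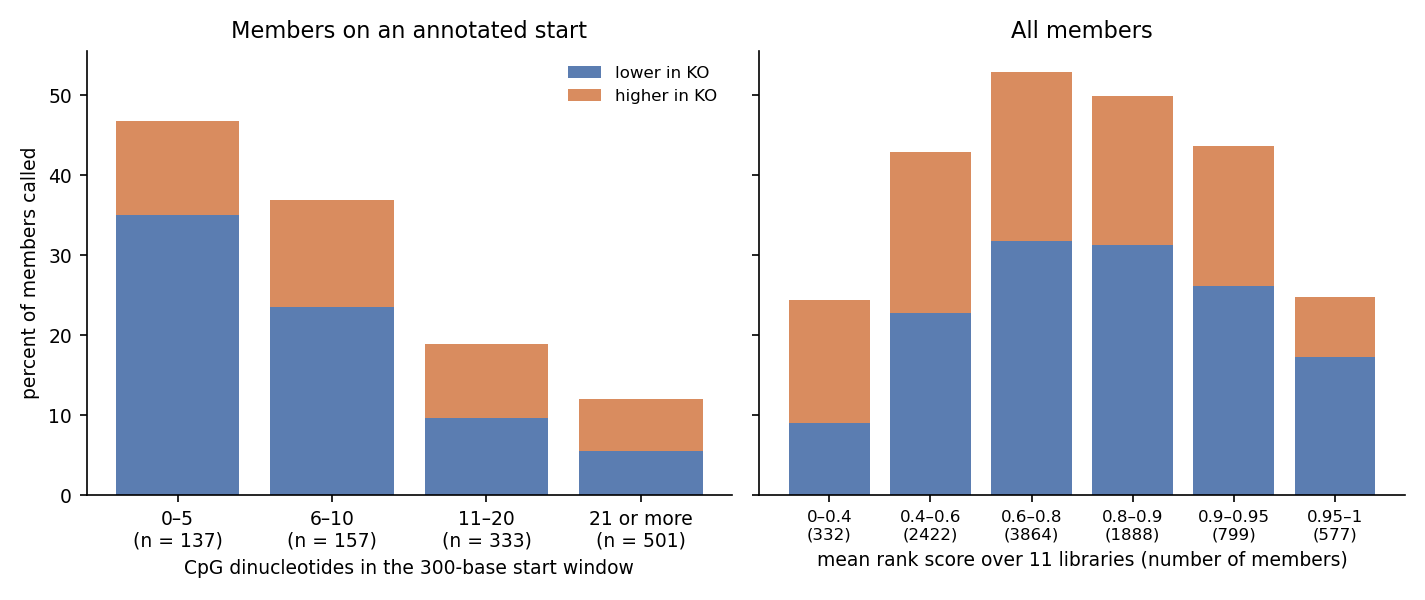
Left, percent of members on an annotated start called lower or higher in the KO by CpG count of the 300-base window. The total goes from 46.7% at 0 to 5 CpG to 12% at 21 or more. Right, the same for all members by their mean rank score over the 11 libraries, highest at 52.8% between 0.6 and 0.8.

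The same windows were searched on both strands for 8 short motifs, counted separately where matches overlap. There were 145 windows at lower members, 100 at higher members and 883 at members not called. Shares of a few percent thus rest on few windows, and no difference between shares was tested. The CEBP letters TTGCNNAA were found in 18.6% of windows at lower, 13% at higher and 7.25% at members not called, and in 10.9% of all windows. The NKX2-1 letters CTCAAG were in 22.1%, 18%, 11% and 15.7% in the same order, and the TEAD letters GGAATG in 18.6%, 21%, 13.9% and 14.6%. The AP-1 letters TGANTCA were in 9.66%, 9%, 6% and 7.84%, FOXA TGTTTAC in 2.76%, 7%, 1.93% and 3.71%, and GRHL AACNGGTT in 2.76%, 3%, 1.93% and 2.09%. The CTCF motif ran the other way, in 11.7% at lower, 7% at higher and 13.5% at members not called, with 8.73% of all windows. The palindromic NFI motif was in none of the windows on members and in 0.0382% of all. The classes differ in GC content, at a median of 53.7%, 58.3% and 62.0% for lower, higher and not called, and the part of this in the motif shares was not tested. Matches are letters in these windows and do not show a bound factor.

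Position in the gene went with the share called. Members from 1000 to 5000 bp from a gene end were called in 36.1% (383 lower and 255 higher of 1769), those beyond 50000 bp in 51.0% (788 and 605 of 2732). On a start lay 26.2% of the nearest and 5.31% of the farthest members, and the part of this in the shares was not tested. Host genes up to 50000 bp long held 2414 members with 39.2% called, and genes over 300000 bp long held 2034 with 50.9%. Over chromosomes the share called ran from 39.8% on chromosome 7, where 16.9% of members lay on a start, to 49.9% on chromosome 3.

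The members that fell most were strong in Control and weak in KO libraries. These members, and those that rose most, were picked for the size of their difference in score. High scores in a group, low scores in the other and their separation therefore follow largely from the choice and are not a result. The greatest fall was in Col4a1, which encodes a chain of the type IV collagen of basement membranes, at chr8:11225403-11226196. It scored 0.274, 0.269, 0.183, 0.207 and 0.342 in the KO libraries, against 0.814 at the lowest, 0.889 at the median and 0.954 at the highest in the Control libraries. All KO libraries lay far below all Control libraries there. The means were 0.255 ± 0.0624 in KO (SD, n = 5) and 0.887 ± 0.0536 in Control (SD, n = 6), a difference of -0.632 ± 0.0387 (SE, limma adjusted p = 1.50e-08). A member of Ppp4r4, a regulatory subunit of protein phosphatase 4, at chr12:103578018-103578709 scored 0.218, 0.266, 0.235, 0.204 and 0.408 in KO libraries, against 0.831, 0.863 and 0.904 at the lowest, median and highest Control library. Its difference was -0.600 ± 0.0396 (SE, limma adjusted p = 2.96e-08). Ttc28 at chr5:111032893-111034210 reached 0.380, 0.0894, 0.131, 0.218 and 0.264 in KO libraries, against 0.781, 0.812 and 0.847. The KO libraries varied more than the Control libraries at Ttc28, with an SD of 0.115 against 0.0254.

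The next falls had differences between -0.561 and -0.500, and KO and Control libraries did not overlap in any of them. They lay in Cfap299, named as a cilia and flagella protein, Kiz, a centrosomal protein, Tbc1d4, a Rab GTPase-activating protein of glucose transporter traffic, Psd3, an exchange factor of ARF6, Col9a1, a chain of the type IX collagen of cartilage, Wdfy3, an autophagy adaptor, and 1700025G04Rik. The Kiz member at chr2:146881630-146882023 had the smallest SE of these, 0.0329, with 0.264, 0.388, 0.280, 0.376 and 0.316 in KO libraries, against 0.846, 0.859 and 0.924 at the lowest, median and highest Control library. The Col9a1 member at chr1:24186738-24187519 had 0.371, 0.519, 0.235, 0.409 and 0.457 in KO libraries, against 0.863, 0.902 and 0.953. None of the 10 lay on an annotated start of the table.

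The members that rose most had KO scores of at least 0.723 and Control scores of at most 0.568, which again follows largely from the choice. The greatest rise was in Aldh1a1, which encodes a retinaldehyde dehydrogenase of retinoic acid synthesis, at chr19:20536431-20537028. It scored 0.873, 0.882, 0.849, 0.925 and 0.908 in the KO libraries, against 0.0120 at the lowest, 0.239 at the median and 0.425 at the highest in the Control libraries. The Control libraries were widely spread and all below the KO libraries. The means were 0.888 ± 0.0298 in KO (SD, n = 5) and 0.220 ± 0.144 in Control (SD, n = 6), a difference of 0.667 ± 0.0622 (SE, limma adjusted p = 8.50e-07). In Fmn1, a formin that nucleates actin filaments, chr2:113478406-113479658 scored 0.962, 0.955, 0.975, 0.966 and 0.965 in KO libraries, against 0.193, 0.365 and 0.568 at the lowest, median and highest Control library. In Nhsl1, chr10:18445849-18446935 scored 0.967, 0.972, 0.959, 0.973 and 0.971 in KO libraries, against 0.334, 0.373 and 0.493. The Nhsl1 difference of 0.579 ± 0.0312 (SE) had the smallest limma adjusted p of the 20, 5.26e-09.

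The other rises had differences from 0.575 to 0.601 without overlap of the groups. They lay in Adgrl3, an adhesion receptor of the latrophilin family, Myo16, an unconventional myosin, Asah2, the neutral ceramidase, Cobll1, Bnip3l, a receptor of mitophagy, Lypd6, a membrane-anchored protein of the Ly6 family, and Tmtc1, which glycosylates cadherins. The Myo16 member at chr8:10422818-10423676 scored 0.851, 0.782, 0.757, 0.819 and 0.723 in KO libraries, against 0.0560, 0.186 and 0.461. The Bnip3l member at chr14:67001019-67002352 scored 0.772, 0.853, 0.799, 0.815 and 0.793 in KO libraries, against 0.162, 0.209 and 0.356. In each of the 10 rises the SD was larger among the Control than among the KO libraries. In the 10 falls it was larger among the KO libraries, except at Psd3 (0.0594 in KO and 0.0650 in Control). The larger SD thus lay in the group with the lower scores, apart from Psd3.

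**Figure D3:**
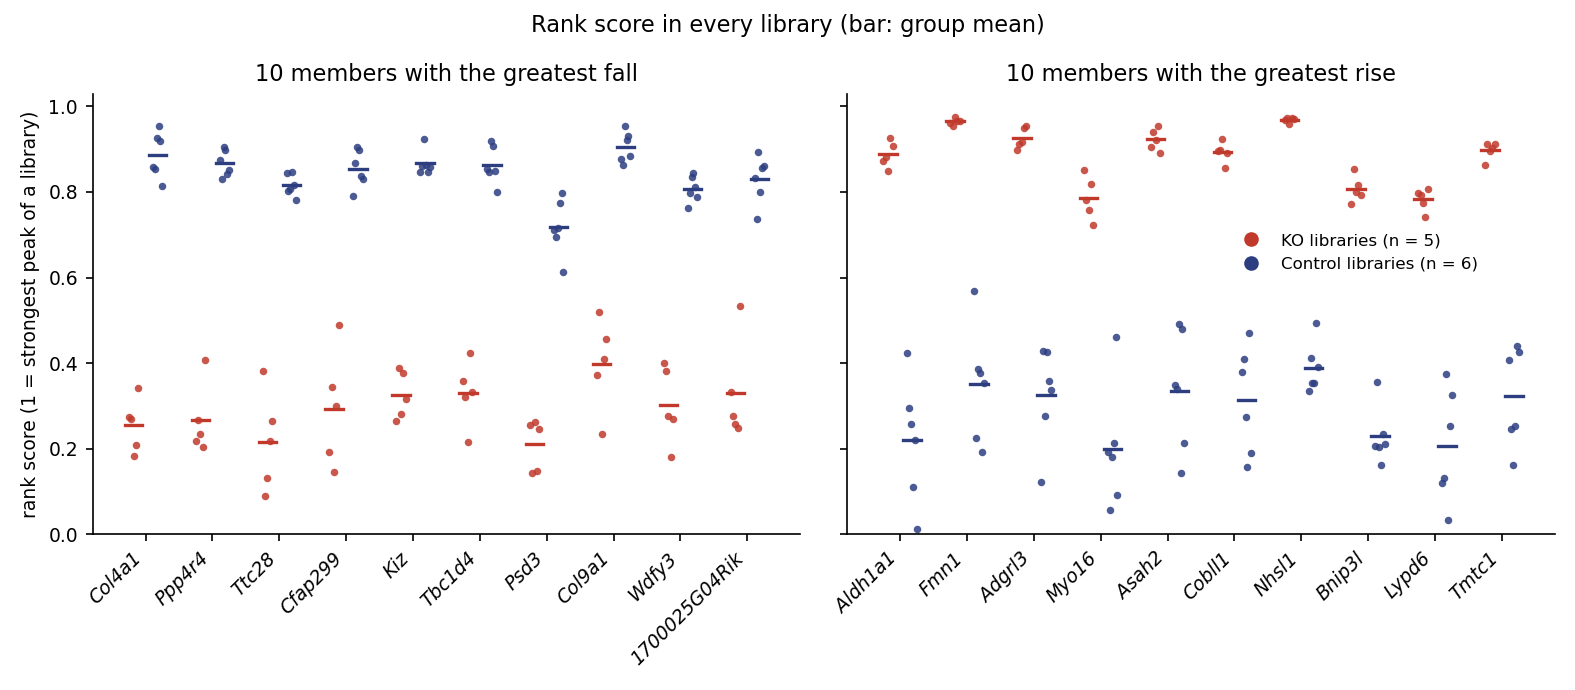
Rank score in every library of the 10 members with the greatest fall (left) and the 10 with the greatest rise (right), KO libraries left of Control libraries for each gene, with bars at the group means. KO and Control points are fully separated in all 20 members, which follows largely from their choice by the size of the difference. The Control points of the rises scatter more than the KO points, and the KO points of the falls scatter more than the Control points, except at Psd3.

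Among the starts printed above, Vav3 fell most. Its internal start member, chr3:109573633-109574507, scored 0.267, 0.375, 0.208, 0.351 and 0.396 in the KO libraries, against 0.703 at the lowest, 0.794 at the median and 0.853 at the highest in the Control libraries. The groups were far apart, by -0.466 ± 0.0439 (SE, limma adjusted p = 9.49e-07), and its summit lay 20 bp from the annotated start in KO and 39 bp in Control libraries on average. In Mylk, the myosin light chain kinase, the member at chr16:34784615-34785292 scored 0.484, 0.581, 0.538, 0.328 and 0.653 in KO libraries, against 0.848, 0.887 and 0.939. An internal start of Mrtfb, a coactivator of serum response factor, in chr16:13357720-13358523 scored 0.805, 0.786, 0.738, 0.745 and 0.665 in KO libraries, against 0.253, 0.371 and 0.530. In Stap2, a signal adaptor, chr17:56005269-56005796 scored 0.701, 0.667, 0.670, 0.703 and 0.683 in KO libraries, against 0.171, 0.328 and 0.424. These 4 windows carry 4 to 8 CpG dinucleotides. The CpG-rich start in Fer, chr17:63863254-63864658, scored 0.999 in all 5 KO libraries, against 0.999 to 1.00 in the Control libraries. Fer was picked as one of the strongest members and the 4 others for their change. Its contrast with them in score therefore follows from the picking.

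Members of the same gene often went in opposite directions. Of the 974 genes with at least 2 called members, 585 (60.1%) had both lower and higher ones, 260 lower only and 129 higher only. Among 1287 pairs of neighbouring members of a gene that were both called, 675 (52.4%) had the same direction. The share was 50.0% for the 162 pairs within 5000 bp and 54.2% for the 345 pairs from 20000 to 50000 bp apart. Over all called members 59% were lower. The shares of mixed genes and of equal pairs that this alone would give were not computed, so no trait of genes is read from these counts.

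The 5 genes with most members showed this mixture. Macrod2, an ADP-ribose hydrolase gene, had 23 members, 7 lower and 8 higher. Arhgap26 had 19 with 4 lower and 5 higher, Nfia, a nuclear factor I transcription factor, 19 with 4 and 4, Pde4d, a cyclic AMP phosphodiesterase, 19 with 3 and 3, and Stard13 17 members with 2 and 3. In Macrod2 the member at chr2:140819312-140820431 scored 0.907, 0.956, 0.909, 0.921 and 0.957 in KO libraries, against 0.601, 0.643 and 0.748 at the lowest, median and highest Control library. The one at chr2:141920324-141921269 went the other way, with 0.757, 0.762, 0.832, 0.739 and 0.781 in KO libraries, against 0.942, 0.965 and 0.977. In Arhgap26 a pair of neighbouring members, chr18:38882075-38882655 and chr18:38884825-38885474, differed by -0.201 ± 0.0220 and 0.298 ± 0.0477 (SE, limma adjusted p = 3.99e-06 and 0.000145).

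In 4 genes 5 or more called members all went in one direction. They were picked for this, and their share of all genes with that many called members is not given, so no trait of genes is read from them. Some of their calls were weak, as in Tjp1 at 65388433 and 65394004 (limma adjusted p = 0.0257 and 0.0290), where the groups overlapped. Tjp1, which encodes the tight junction protein ZO-1, had 5 lower and 0 higher of 8. Its clearest fall, at chr7:65429893-65431453, had 0.816, 0.733, 0.709, 0.747 and 0.673 in KO libraries, against 0.830, 0.877 and 0.889. Ghr, the growth hormone receptor, had 5 lower of 8, and chr15:3330284-3330909 scored 0.352, 0.535, 0.453, 0.503 and 0.540 in KO libraries, against 0.828, 0.851 and 0.891. Syn3, a synapsin gene, had 5 lower of 10. Fam172a had 5 higher of 8, of which chr13:77892419-77893161 scored 0.957, 0.965, 0.979, 0.966 and 0.953 in KO libraries, against 0.764, 0.830 and 0.885.

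**Figure D4:**
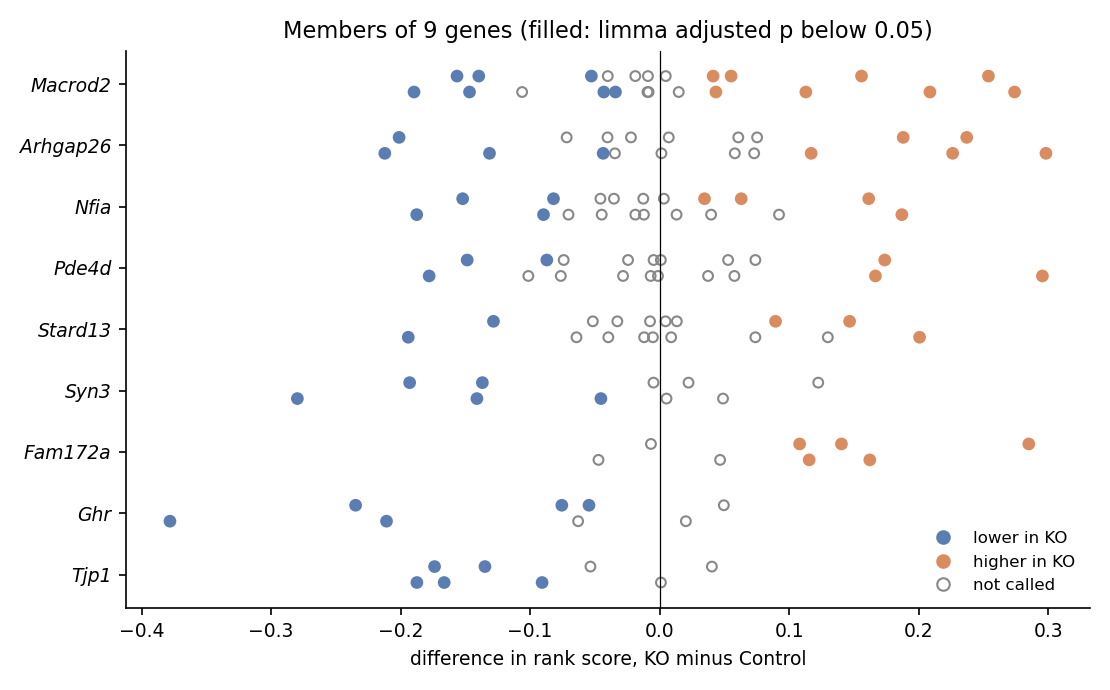
Difference in rank score (KO minus Control, x axis) of each member of the 5 genes with most members and of the 4 genes with at least 5 called members all one way. Filled points passed limma at an adjusted p below 0.05. Lower and higher members stand side by side in Macrod2, with 7 and 8, while Tjp1 has 5 lower and none higher.

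A member can hold more than 1 summit, and the place of the strongest summit was not used by the rule. It moved by at least 100 bp at a limma adjusted p below 0.05 in 139 members (1.41%), 67 towards lower and 72 towards higher coordinates in the KO, against 0.558% and 0.568% of all 28339 regions with a peak in every library (1.13% together). Of the 139, 60 were not called in rank score, 25 were lower and 54 higher. The count was lower without any 1 library, from 88 with Control replicate 4 left out to 100 with KO replicate 5 left out. Of members with 1 summit in every library, 4388 in number, 2 were called. Nearly all moves were thus in members with more than 1 summit in some library. The groups did not overlap in summit position at 103 moved members up to 2000 bp wide. The 5 greatest moves among these are described below, so the separation of their groups follows from the choice.

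In Macrod2 the region chr2:141288244-141290114 kept its rank while its leading summit changed. The summit lay 1387, 1395, 1372, 1357 and 1369 bp from the lower end of the region in KO libraries, against 282, 289.5 and 299 bp at the lowest, median and highest Control library. The mean score was 0.714 ± 0.0330 in KO (SD, n = 5) and 0.700 ± 0.0338 in Control libraries (SD, n = 6). In Pla2g4a, the cytosolic phospholipase A2, the summit of chr1:149912249-149913824 lay at 398, 413, 398, 411 and 393 bp in KO libraries, against 1386, 1394 and 1402 bp, also without a called difference in score (limma adjusted p = 0.402). In Lin7a, a polarity scaffold, the summit of chr10:107362825-107364409 lay at 1371, 1365, 1374, 1370 and 1356 bp in KO libraries, against 410, 425 and 446 bp, and the score rose by 0.187.

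In Txk, a Tec family kinase gene, the summit of chr5:72735564-72737256 lay at 275, 251, 264, 251 and 228 bp in KO libraries, against 1460, 1482 and 1493 bp in Control libraries. It was on average 784 bp from the annotated Txk start printed above in KO and 441 bp in Control libraries, on opposite sides of it. The score of this member fell by 0.294. In Nucb2, the nesfatin precursor gene, the summit of chr7:116514380-116516181 lay at 366 to 384 bp in KO libraries, and at 389 bp in Control replicate 1 against 1596 to 1613 bp in the 5 other Control libraries. The Nucb2 call (limma adjusted p = 0.0352) was lost without any 1 library other than Control replicate 1, with adjusted p from 0.0691 to 0.0780.

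**Figure D5:**
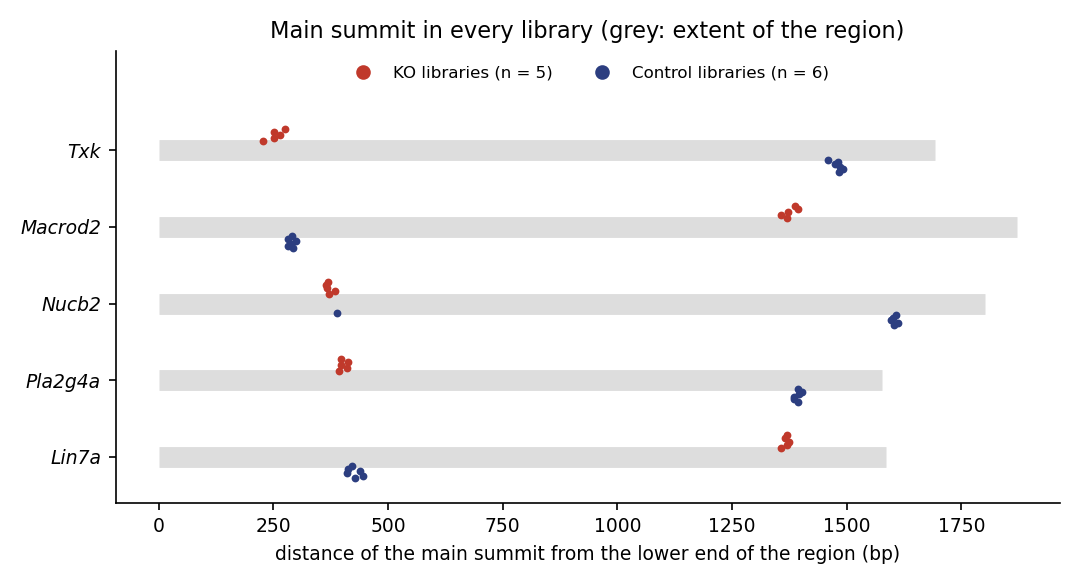
Distance of the main summit from the lower end of the region (bp) in every KO library (above) and every Control library (below) for 5 members. They have the greatest moves among members up to 2000 bp wide in which the groups do not overlap, so the separation follows from the choice. Grey bars give the extent of each region. The mean difference (KO minus Control) ranges from -1226 bp in Txk to 1087 bp in Macrod2, and 1 Control library of Nucb2 stands with the KO libraries.

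The length covered by peaks was also compared, on the log2 scale. It was smaller in the KO at 363 members and greater at 107 (4.76% called), against 3.08% and 0.723% of all regions with a peak in every library (3.81% together). The median covered length per library was 632 to 658 bp in KO and 639 to 741 bp in Control libraries. It was greatest in the libraries with the longest deposited lists, Control replicates 6 (112297 peaks, 741 bp) and 4 (105916 peaks, 705 bp). It was smallest in the library with the shortest list, KO replicate 5 (72935 peaks, 632 bp), and the order in between was not strict. KO lists were the shorter ones on average, and the part of list length in the counts of narrower and wider members was not tested. Of the narrower members 229 were also lower in rank score, 14 higher and 120 not called, and of the wider ones 67 were higher, 6 lower and 34 not called. Both counts were lower without any 1 library, at 182 to 331 narrower and 59 to 91 wider members. Narrower members were fewest without Control replicate 4 (182) or Control replicate 6 (195). Wider members were fewest without KO replicate 2 (59).

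The member that narrowed most was in Dab2, an endocytic adaptor gene, at chr15:6324900-6326593. Peaks covered 332, 342, 319, 351 and 339 bp in KO libraries, against 918, 1146 and 1538 bp at the lowest, median and highest Control library, a log2 difference of -1.80 ± 0.12 (SE, limma adjusted p = 1.87e-05). Its score fell as well, by 0.408. Map3k4, a stress kinase gene, fell by 1.61 on the log2 scale in covered length and by 0.170 in score. In Nr3c1, the glucocorticoid receptor gene, chr18:39481531-39482966 was covered over 277, 384, 313, 320 and 315 bp in KO libraries, against 505, 826.5 and 1435 bp, at the same mean score of 0.417 in both groups. In Map9, a microtubule-associated protein gene, covered length fell by 1.26 while the score rose by 0.0542. Dock9, an exchange factor of Cdc42, had a log2 difference of -1.38, a call that was lost without KO replicate 3 or 4 or Control replicate 4 (limma adjusted p = 0.0513, 0.0522 and 0.0505).

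Among the wider members, Sox5, a transcription factor gene, was covered over 1167, 1004, 1109, 1009 and 1211 bp at chr6:144153089-144154347 in KO libraries, against 451, 490.5 and 543 bp in Control libraries. Its log2 difference was 1.15 ± 0.07 (SE, limma adjusted p = 6.75e-06), with no called difference in score. Ccdc88c, encoding a Dishevelled-binding protein, widened by 1.02 on the log2 scale, and Septin4 by 0.94. Bcl2l1, the gene of the survival factor Bcl-xL, widened by 1.29 at an internal start. Sorbs2 widened by 1.31, with 1315 to 1461 bp in KO libraries and 449 to 489 bp in 5 Control libraries, but 1340 bp in Control replicate 6, and that call was lost without KO replicate 3 (limma adjusted p = 0.0501) or Control replicate 4 (0.0524).

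Gene lists of the lung epithelium were described by the counts of their members. Over all members 46.5% were called, and a list's share is to be read against that. Of 59 members in lung epithelial transcription factor genes 13 were lower and 10 higher. In Elf5, an ETS factor, chr2:103425354-103425839 scored 0.289, 0.274, 0.274, 0.411 and 0.348 in KO libraries, against 0.571, 0.663 and 0.713 at the lowest, median and highest Control library. In Klf5, a Krüppel-like factor, chr14:99309595-99310304 rose, with 0.799, 0.790, 0.865, 0.832 and 0.760 in KO libraries, against 0.569, 0.612 and 0.669. Nfib, another nuclear factor I gene, had a member at chr4:82470194-82471075 with a difference of 0.229 ± 0.0264 (SE, limma adjusted p = 6.91e-06), which became -0.0299 (limma adjusted p = 0.781) when all peaks of the region were averaged. Nkx2-1, Foxa1, Foxa2, Gata6, Sox9, Sox2, Cebpa, Elf3 and Tbx2 held no member.

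Alveolar type 2 genes, of the cells that make surfactant, held 18 members, 7 lower and 4 higher. In Abca3, the lipid transporter of lamellar bodies, chr17:24365708-24366340 scored 0.794, 0.850, 0.882, 0.862 and 0.890 in KO libraries, against 0.573, 0.664 and 0.722. In Sftpd, for surfactant protein D, chr14:41183306-41183981 scored 0.612, 0.735, 0.577, 0.687 and 0.532 in KO libraries, against 0.268, 0.362 and 0.444. Both were thus higher in every KO library than in any Control library, and a member of Lamp3, a lamellar body protein, was lower by 0.294 ± 0.0249 (SE, limma adjusted p = 3.21e-07).

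Alveolar type 1 genes, of the thin gas-exchange cells, held 57 members, 12 lower and 15 higher. In Lmo7, a junction-associated LIM protein, chr14:101872711-101873458 scored 0.291, 0.217, 0.169, 0.339 and 0.331 in KO libraries, against 0.592, 0.677 and 0.781. In Sema3e, a secreted semaphorin, chr5:14092369-14093186 scored 0.833, 0.751, 0.836, 0.809 and 0.804 in KO libraries, against 0.130, 0.355 and 0.520, although the call was lost when all peaks of the region were averaged (limma adjusted p = 0.0790). In Ahnak, a large scaffold protein, chr19:8997341-8998163 fell by 0.0714 ± 0.00719 (SE, limma adjusted p = 1.52e-06), a small difference between tight groups. Airway secretory and multiciliated genes held 21 members, 6 lower and 3 higher. Those with the smallest p were a pair of falls in Dnah11 (differences of -0.199 and -0.369) and a rise in Dnah5 (0.0414), both axonemal dynein genes, and none of these 3 was called when all peaks of a region were averaged.

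Genes of junctions, polarity and cytoskeleton held 93 members, 23 lower and 17 higher. In Pard3b, a polarity gene, chr1:62070612-62071083 scored 0.652, 0.737, 0.654, 0.755 and 0.791 in KO libraries, against 0.882, 0.940 and 0.967. A Magi1 member fell by 0.0972 ± 0.0110 (SE, limma adjusted p = 5.54e-06), without a call when peaks were ranked by fold (limma adjusted p = 0.0768). A Shroom3 member rose by 0.369 ± 0.0451 (SE, limma adjusted p = 1.19e-05), without a call when all its peaks were averaged (limma adjusted p = 0.724). Hippo, Wnt, Notch and growth factor genes held 79 members, 26 lower and 14 higher. In Igf1r, the type 1 insulin-like growth factor receptor, chr7:68072998-68073894 scored 0.574, 0.569, 0.586, 0.492 and 0.544 in KO libraries, against 0.820, 0.859 and 0.870. In Bmpr1b, a receptor of bone morphogenetic proteins, chr3:142048371-142049550 scored 0.909, 0.928, 0.850, 0.914 and 0.884 in KO libraries, against 0.518, 0.569 and 0.676. In Egfr, the epidermal growth factor receptor, chr11:16829497-16829947 scored 0.690, 0.687, 0.762, 0.684 and 0.723 in KO libraries, against 0.00155, 0.169 and 0.324. Ubiquitous genes held 3 members, in Sdha, Rad21 and Ywhaz, and none was called (limma adjusted p = 0.145, 0.146 and 0.182), and the direction of Rad21 turned when peaks were ranked by fold. Without KO replicate 1 the Sdha member was called, at 0.125 (limma adjusted p = 0.0226), and without Control replicate 1 the Rad21 member, at -0.0980 (limma adjusted p = 0.0178).

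The targeted genes both held members. A peak list does not show a deletion unless the deleted exons lie under a peak, and the labels do not place them. Prdm16 (chr4:154316122-154637360) held 8 members, 4 lower and 1 higher, and Mecom (chr3:29951296-30509759) held 11, 2 lower and 3 higher. The greatest Prdm16 fall, at chr4:154585720-154586671, had 0.479, 0.394, 0.584, 0.347 and 0.592 in KO libraries, against 0.768, 0.805 and 0.837 at the lowest, median and highest Control library. The members at 154358439, 154359806 and 154499597 fell by 0.282, 0.169 and 0.131, the second without a call when KO replicate 2 was left out (limma adjusted p = 0.0518) or peaks were ranked by fold (0.489). The rise at 154352191, by 0.0945 (limma adjusted p = 0.0412), was lost without KO replicate 1, 3 or 4 or Control replicate 1, 2 or 6 (limma adjusted p from 0.0597 to 0.0954). The same call was lost with the lists as deposited (limma adjusted p = 0.429) and with all peaks averaged (0.0895). Testing only regions found in all 11 libraries lost it too (0.0675). The other 3 had differences of -0.0151, 0.0949 and 0.0409. The direction of the last, at 154626205, turned with the lists as deposited. The first of these, at 154478785, was called without KO replicate 5 (limma adjusted p = 0.0488). It was also called with the lists as deposited (limma adjusted p = 0.0340) and with peaks ranked by fold (limma adjusted p = 0.0133).

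In Mecom the member at chr3:29984179-29985020 rose, with 0.936, 0.894, 0.935, 0.873 and 0.929 in KO libraries, against 0.673, 0.717 and 0.814 at the lowest, median and highest Control library. That rise was not called when peaks were ranked by fold (limma adjusted p = 0.453). The member at chr3:30019238-30020649, not far away, fell, with 0.541, 0.466, 0.516, 0.552 and 0.544 in KO libraries, against 0.707, 0.825 and 0.876. The member at 30503616, nearest to the higher end of the gene, fell by 0.0695, and the one at 30134993 rose by 0.0595. Neither was called when peaks were ranked by fold (limma adjusted p = 0.381 and 0.0839), and with all peaks of a region averaged they stood at 0.00707 and 0.0155 without a call (limma adjusted p = 0.923 and 0.760). The rise at 30107086, by 0.167 (limma adjusted p = 0.0424), was lost without any 1 library other than KO replicate 2 or Control replicate 4 (limma adjusted p from 0.0507 to 0.106). The same call was lost with the lists as deposited (limma adjusted p = 0.347) and with peaks ranked by fold (0.121). Re-ranking (0.0532), the logit scale (0.0572) and testing all merged regions (0.0509) lost it too. The 6 others, at 30048212, 30213712, 30245779, 30418306, 30467763 and 30480463, had differences from 0.0110 to 0.108 and were not called. The direction of 30048212, 30213712, 30245779 and 30480463 turned under some alternatives. With all peaks of a region averaged, 30467763 was called, at 0.105 (limma adjusted p = 0.0451).

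The label of the cells was set against marker loci. All 12 epithelial marker genes had a region with a peak in every library, and the sum of their strongest scores was 8.84 to 9.36 in KO and 9.07 to 9.77 in Control libraries. Of 12 endothelial genes 5 had one, with sums of 2.93 to 3.85 in KO and 3.39 to 4.71 in Control libraries, and Cdh5, Tie1, Emcn and Sox17 were at 0. Of 12 mesenchymal genes 5 had one, with 3.83 to 4.28 in KO and 4.24 to 5.19 in Control libraries, and Tcf21 and Dcn at 0. Of 12 immune genes 3 had one, with 2.74 to 3.51 in KO and 2.95 to 3.47 in Control libraries, and Ptprc, Cd52, Lyl1, Laptm5, Itgam and Vav1 at 0. Of 6 erythroid genes on the chromosomes used 3 had one, and Hbb-bs was at 0. Their sums were 1.77 to 2.20 in KO and 1.99 to 2.74 in Control libraries. Some genes of these 4 lists scored high. Endothelial Tek had 0.992 to 0.997 in KO and 0.991 to 0.998 in Control libraries. In the same order mesenchymal Myh11 had 0.937 to 0.959 and 0.880 to 0.946, and immune Lcp1 0.821 to 0.864 and 0.805 to 0.910. Erythroid Klf1 had 0.717 to 0.819 and 0.651 to 0.852. Epithelial Nkx2-1 had only 0.244 to 0.307 and 0.192 to 0.405. The part of these sums in the differences between genotypes was not tested, and in bulk cells a change in cell types and a change within a cell type cannot be told apart.

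Members also overlapped genes of other kinds, 778 of them a long non-coding RNA and 15 a microRNA gene. Of the 15, the member in Ddx39b that covers Mir8094 fell by 0.276 ± 0.0443 (SE, limma adjusted p = 0.000150), and those covering Mir7008 in Prkci and Mir3080 in Tcf20 fell by 0.106 and 0.187 (limma adjusted p = 0.0329 and 0.0413). Those covering Mir6387 in Trib2 and Mir6985 in Ssh3 were higher by 0.156 and 0.123 (limma adjusted p = 0.0266 and 0.0456), and the other 10 were not called. These 3 lower and 2 higher of 15 stand beside 27.4% lower and 19.1% higher over all members and 44.8% called over all regions tested, and nothing is read from them about microRNA genes.

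The limits of the rule cut through a continuous range. Just inside the distance from gene ends were members of Sstr1, Susd1 and Chst5, 1005, 1007 and 1007 bp away, with mean scores of 0.651, 0.734 and 0.744. Just outside it were regions at Lrrc51, 9530003J23Rik and Mosmo, 999, 997 and 997 bp away, with 0.637, 0.912 and 0.597. The members closest to the end of the lists were those in Egfr, Kdm6b and Coro6, whose weakest library, a Control in each case, placed them at ranks 72823, 72701 and 72689 of 72935. Regions in Lgr4, Pkhd1 and Hs6st3 missed the rule by 1 Control library, in which their peak had rank 72999, 73081 and 73174. A further 2290 intragenic regions had a peak in 10 libraries.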

How the data were processed

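ATAC-seq peak lists in narrowPeak layout were deposited by the authors, 1 per library. MACS2, DiffBind 3 and deepTools and the build mm10 are named in the submitters' processing notes, while the sources used here name neither an aligner nor options. The deposited values per peak are a fold enrichment (a ratio), a -log10 p and a -log10 q of the authors' peak caller, and the offset of the summit. These are the peak's own values, used only to rank peaks within a list, and the -log10 q and the deposited score were not used. The files give no counts, so depth is unknown and no interval could be made.

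Merging, ranking and counting were done in Python 3.11.15 with pandas 2.3.3. Rank scores, the position of the strongest summit (bp) and the covered length (log2 bp) were compared between genotypes with limma 3.58.1 in R 4.3.3 and Benjamini-Hochberg adjustment, with trend and robust variance for scores and lengths and robust variance for positions. The first fit took regions found in 3 or more libraries, and the others took those found in all 11. The fits were tested on simulated data. Genes and start windows are from RefSeq (GRCm38.p6).

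Members and lists were chosen with earlier results of these data known. Named members are the 10 strongest, the 10 greatest called falls and rises and the 5 most even of middle strength. The 5 greatest changes of length in each direction are also named. So are the 5 greatest moves of a summit, among members up to 2000 bp wide without overlap of the groups. The others are the 3 with the smallest p in each gene list, every member of Prdm16 and Mecom, and the 5 genes with most members. The start windows and their motif search, the genes with all calls one way and the microRNA genes were chosen after values were seen. The planned motif search in the members themselves could not be run because no mm10 genome was given.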

Additional observations from a re-analysis of the deposited data

Results flagged for a closer look

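Of 218 groups of libraries examined, 13 held a library far from the others of its group. Chance flags about 1 in 20 groups. KO replicate 5 had 1.54 summits per member, against 1.40 in the next KO library (gap over range 0.791), and 59.98% of members with 1 summit, against 68.2% (0.766). It also stood low in score at the Prdm16 member at 154358439 with 0.309, against 0.516 (0.823), and at Septin4 with 0.479, against 0.691 (0.799). Control replicate 3 stood high in score at Kiz with 0.924, against 0.864 (0.772), and at Dab2 with 0.892, against 0.801 (0.687), and its covered length at Dock9 was 433 bp, against 1095 bp (0.710).

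Control replicate 6 scored 0.433 at Pdlim5, against 0.517 in the next Control library (0.788), and was covered over 1340 bp at Sorbs2, against 489 bp (0.955). Control replicate 2 scored 0.356 at Bnip3l, against 0.233 (0.632). KO replicate 4 was covered over 858 bp at Septin4, against 1000 bp (0.772). At Nucb2 the summit of KO replicate 4 lay at 384 bp, against 371 bp (0.722), and that of Control replicate 1 at 389 bp, against 1596 bp (0.986).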

How the results depend on the processing

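The counts of lower and higher members, 2710 and 1885, stayed within 1.5 times under re-ranking, centring, the logit scale, other sets of regions tested and limma without trend and robust options. Keeping only the 36467 strongest peaks of each list gave 5939 members, 1619 lower and 1006 higher. Ranking by fold gave 1564 lower, and the lists as deposited 1217 higher. The mean difference of -0.00943 became -0.0426 with the lists as deposited, -0.0243 with the shorter lists, 0.00583 by fold and -0.0218 with all peaks averaged. With all peaks averaged, 37 called members were called in the opposite direction. Members whose direction turned without a call are not in this count. The cause of these changes was not tested. On the logit scale, whose units are not those of the score, the median difference of all regions was -0.180.

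Leaving out 1 library gave 2478 to 2632 lower, 1723 to 1848 higher, a mean difference of -0.0115 to -0.00771, 88 to 100 moved summits, 182 to 331 narrower and 59 to 91 wider members. Summits per member differed by 0.0581, and by 0.0252 to 0.0818 with 1 library left out, lowest without KO replicate 5. Moved summits numbered 195 at 50 bp and 106 at 200 bp, and 2 among members with 1 summit in every library. With the replicate number as a block and Control replicate 6 left out, 2524 members were lower and 1733 higher, but 72 summits moved, 34 members were narrower and 21 wider. The numbers do not pair the libraries: the correlations of deviations were 0.106, -0.0267, -0.0449, 0.0180 and 0.0835, and 0 of 5 correlated best with its own number. Under the block the calls of Prdm16 at 154352191, Mecom at 30107086, Nucb2, Dock9, Nr3c1, Map9, Bcl2l1 and Septin4 were lost.

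Of 1753 alternative values of 90 named results, 1612 kept direction and call, 61 moved, 58 lost and 7 gained a call, and 15 turned direction, none with a call. Nfib became -0.0299 with all peaks averaged, Rad21 0.0851 by fold and Prdm16 at 154626205 -0.000832 with the lists as deposited. Mecom at 30048212 became -0.0518 as deposited, -0.0541 by fold, -0.133 averaged, -0.00435 under the block and without Control replicate 6, and -0.00905 and -0.0121 without KO replicates 2 and 3. With 1 library left out it ranged from -0.0121 to 0.0313. Mecom at 30213712 became -0.0170 and at 30480463 -0.00470 as deposited, the last also -0.0266 by fold, and averaging gave -0.0152 at 30245779 and 0.00707 at 30503616. Without counts the depth behind each peak is unknown.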
